A study of Mus musculus with 22 samples.

Results

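The genes that build ribosomes were read in mouse liver as a list of 38 genes for nucleolar proteins, small nucleolar ribonucleoproteins (snoRNPs), RNA polymerase I and the assembly factors of both ribosomal subunits. Probes were matched to the list by RefSeq accession or by gene name. Of the 38 genes, 32 were found among the 26198 genes tested on the arrays, and all 32 are described here. Gnl3, Dkc1, Rrn3, Utp20, Wdr43 and Wdr75 were matched to no probe and were not analysed here.

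Ribosomes are made in the nucleolus, where RNA polymerase I transcribes a long precursor of the ribosomal RNAs. snoRNPs then guide methylation and pseudouridylation of that precursor, and successive sets of assembly factors cut, fold and export the small (40S) and large (60S) subunits. In liver this programme is known for its rise during growth and regeneration, and Myc is a transcription factor known to bind and activate many of its genes.

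The livers came from ICR mice aged 8 weeks, and RNA was pooled within 10 groups with 2 to 5 mice in a pool. Each sex had a sham-operated group, a group without its pituitary (hypophysectomised, Hypox) and Hypox groups given growth hormone (GH). The design text states sham surgery and vehicle injection for the controls, which the sample labels call intact or untreated. It also names male Hypox mice as the control of the females given 2 injections. The sample labels give female Hypox mice there, and the labels were followed. A single GH injection was followed for 30 or for 90 min, and a course of 2 injections, with 4 h between them, was read 30 min after its end. For that course, the number of injections and the time since the first cannot be told apart. Every GH group and its control therefore lacked the hormones of their own pituitary, and only GH was given back, by injection, in the GH groups. The dose and the time since surgery are not given in the sources used here. Each of 11 pairs of groups was hybridised to 2 Agilent 2-colour arrays of opposite dye, 22 arrays in all. The Hypox pools on both male arrays of 2 injections held 5 mice each from a group of 6, so these controls shared mice. The p-values use an error pooled over all 22 arrays, which holds variation between arrays as well as between pools. They do not measure the spread between individual mice. For the male comparison of 2 injections they do not measure a spread between independent control pools either. In whole liver, fewer cells of a type and less RNA per cell cannot be told apart.

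A value below is a log2 ratio of the first named group over the other. Arrays 1 and 2 are the replicates of a comparison, means carry the standard error (SE) of the limma fit, and n = 2 arrays throughout. A gene was called higher or lower, and is said to have risen or fallen, when its Benjamini-Hochberg adjusted p over all 26198 genes was under 0.05 and both arrays had the same sign. Differences of ratios between times or sexes were called by the adjusted p alone, without a rule on the sign of the arrays.

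The hepatocyte markers Alb, Apoa1, Fgb, Tat, Trf and Ttr were measured above background, and the GH target Socs2, an inhibitor of GH signalling, was 2.22 higher at 30 min in males and 2.97 higher in females. At 90 min Socs2 was 3.33 and 3.89 higher. Median array signals were 294 to 376 in green and 415 to 522 in red over backgrounds of 245 to 290.5 and 316 to 346. The 32 genes were above background in both channels on all 22 arrays except Rrp12, which was so on 18 arrays in its first named group. Skeletal muscle markers stood apart on some arrays. Their median over 12 genes was 2.80 on array 1 of the male 30 min comparison and -0.04 on array 2, 1.75 and 0.04 at 90 min in males, and -0.03 and 2.57 after 2 injections in males. In females it lay within 0.05 of 0 at 30 and 90 min but was -2.93 and -2.75 after 2 injections, where 10 of 12 markers fell, and in Hypox over sham males it was -2.34 and -2.75 with 8 of 12 lower.

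Promoters of 27 of the 32 genes could be read as windows from 250 bases before to 50 bases after a RefSeq start (GRCm38.p6). They are shown because the Myc and GH pathways are known to act through short DNA motifs, the E-box CACGTG and the STAT motif TTCNNNGAA, both of which read the same on either strand and do not overlap. CACGTG stood in 2 of the 27 genes (7.41%), Nop2 and Pes1, against 2187 of 27025 genes in the whole table (8.09%). TTCNNNGAA stood in 3 of the 27 (11.1%), Noc4l, Nop58 and Polr1b, against 9.55% of all genes. Fbl, Bop1, Npm1, Rrp12 and Rrs1 had no window, so neither motif was looked for in them. Of 86 further ribosome biogenesis genes with a window, 23 held CACGTG (26.7%). A match is a description of the letters and not of a bound site. The windows of these genes had a median GC content of 60.2% and 22 CpG sites, against 52.7% and 7 for all windows. In the following stretches of 100 bases, on the forward strand of GRCm38.p6, which is the strand of these genes, capitals mark the motif.
Nop2, chr6:125131783-125131882: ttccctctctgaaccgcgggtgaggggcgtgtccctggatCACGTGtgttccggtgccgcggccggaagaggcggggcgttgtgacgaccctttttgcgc
Pes1, chr11:3963900-3963999: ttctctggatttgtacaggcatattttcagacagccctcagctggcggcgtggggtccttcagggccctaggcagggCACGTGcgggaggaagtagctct
Nop58, chr1:59684906-59685005: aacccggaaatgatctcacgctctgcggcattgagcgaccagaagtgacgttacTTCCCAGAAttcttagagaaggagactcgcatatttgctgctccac
Polr1b, chr2:129100896-129100995: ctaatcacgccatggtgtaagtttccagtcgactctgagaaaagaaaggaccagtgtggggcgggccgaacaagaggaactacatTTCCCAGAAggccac
The CACGTG of Nop2 began 60 bases before the start and that of Pes1 2 bases after it. The STAT motif began 46 bases before the start used for the window in Nop58 and 15 before it in Polr1b. For these 2 genes the RefSeq gene begins further upstream, at chr1:59684961 for Nop58 and chr2:129100970 for Polr1b. By the gene starts the motif of Nop58 spans the start and that of Polr1b lies within the gene.

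After GH the calls among the 32 genes came at 90 min and after 2 injections, and all of them were rises. In males none was called at 30 min, 11 rose at 90 min (background: 3.40% of all genes rose) and 29 rose after 2 injections (10.6% of all genes). In females none was called at 30 min, 4 rose at 90 min (2.34%) and 24 rose after 2 injections (4.40%). None of the 32 fell after GH in either sex, where 1.58% and 8.70% of all genes fell in males at 90 min and after 2 injections, and 0.821% and 4.03% in females. None was lower at these times at an unadjusted p under 0.05 by limma either, against 8.55% and 14.8% of all genes in males and 4.71% and 11.4% in females. The median of the 32 genes was -0.09 at 30 min, 0.15 at 90 min and 0.70 after 2 injections in males. It was -0.03, 0.17 and 0.39 in females, while the median of all genes stayed within 0.03 of 0. These comparisons of 1 sex share the same Hypox group.

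**Figure D1:**
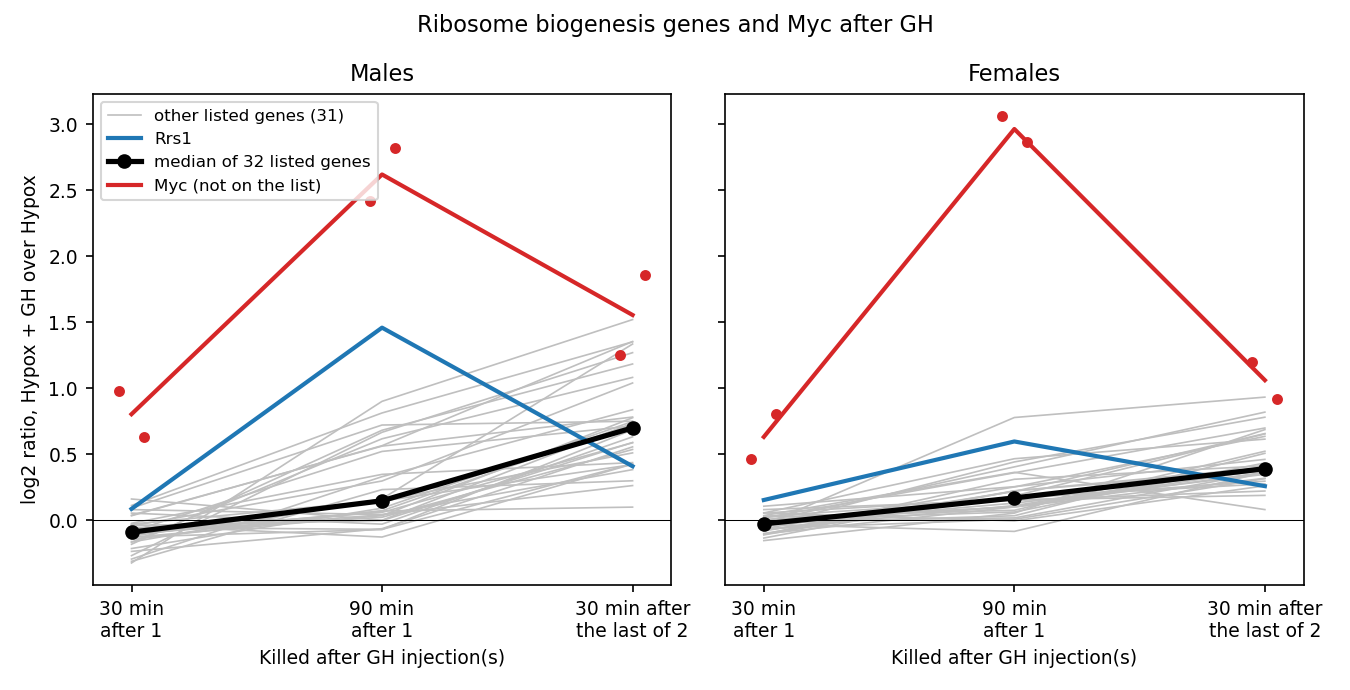
Log2 ratios of Hypox + GH over Hypox for the 32 genes (grey lines, Rrs1 in blue, median in black) and for Myc (red line with both arrays as points) at the 3 times, males left and females right. Myc and Rrs1 have their highest mean at 90 min, and the median of the 32 genes has its highest value after 2 injections, 0.70 in males and 0.39 in females.

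At 30 min no gene of the list was called in males, where 1.78% of all genes rose and 0.721% fell, nor in females, where 0.0115% rose and 0.00763% fell. At an unadjusted p under 0.05, limma gave 5 lower and 0 higher in males, against 7.25% and 11.1% of all genes, and 0 in either direction in females, against 3.97% and 3.59%. The ratios spanned -0.32 to 0.16 in males. The lowest was Nop58, a core protein of box C/D snoRNPs, with -0.20 and -0.45 on the 2 arrays (adjusted p = 0.23).

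At 90 min in males the called genes came from 4 of the 6 roles. Among nucleolar proteins 2 of 5 rose, Nolc1, a snoRNP chaperone, and the RNA helicase Ddx21. Among box C/D proteins 3 of 4 rose, while none of the 2 box H/ACA proteins and none of the 5 RNA polymerase I genes was called. Of the 40S factors 2 of 5 rose, and of the 60S factors 4 of 11.

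Rrs1, which helps to bring the 5S ribonucleoprotein into the 60S subunit, was 1.61 and 1.31 higher on the 2 male arrays at 90 min. Both arrays lay above those of each other gene of the list. The mean of 1.46 ± 0.14 (SE) was a 2.75-fold rise (adjusted p = 1.8e-04, limma).
Nop58 was 1.05 and 0.76 higher on these arrays, a 1.87-fold rise (adjusted p = 0.0028). Nolc1 was 0.86 and 0.76 higher, a 1.76-fold rise (adjusted p = 0.0041). Both genes were high on both arrays, below Rrs1. Nip7, a factor of pre-rRNA processing, was 0.77 and 0.67 higher (mean 0.72, adjusted p = 0.0011). Nop56, the partner of Nop58 in box C/D snoRNPs, was 0.83 and 0.51 higher (adjusted p = 0.0073). The remaining 6 that rose were Bysl (0.68), Nop2 (0.62), Ddx21 (0.57), Noc4l (0.56), Noc3l (0.52) and Rrp9 (0.35). Bysl and Noc4l are 40S factors, Nop2 methylates the large ribosomal RNA, Noc3l is a 60S factor and Rrp9 belongs to the U3 snoRNP. Without array 1 of this comparison 1 gene was called, and without array 2 4 genes were.

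In females at 90 min the 4 called genes were Nop58, Rrs1, Noc4l and Gar1, a box H/ACA protein. Nop58 was 0.63 and 0.93 higher, a 1.72-fold rise (adjusted p = 0.010). Rrs1 was 0.53 and 0.66 higher, a 1.51-fold rise (adjusted p = 0.043). Noc4l was 0.24 and 0.69 higher (adjusted p = 0.021) and Gar1 was 0.33 and 0.48 higher (adjusted p = 0.018). Array 2 was the higher of the pair for all 4. Without array 1 of this comparison 5 genes were called, and without array 2 none. At an unadjusted p under 0.05, 12 of the 32 were higher and 0 lower, against 10.1% and 4.71% of all genes.

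After 2 injections every role had called genes in both sexes. In males 5 of 5 nucleolar genes, 4 of 4 box C/D, 2 of 2 box H/ACA, 4 of 5 RNA polymerase I, 4 of 5 of the 40S and 10 of 11 of the 60S genes rose. In females the counts were 4, 3, 2, 3, 3 and 9. Both arrays were above 0 for 31 genes in males (30.4% of all genes) and for 32 in females (32.4% of all genes).

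**Figure D2:**
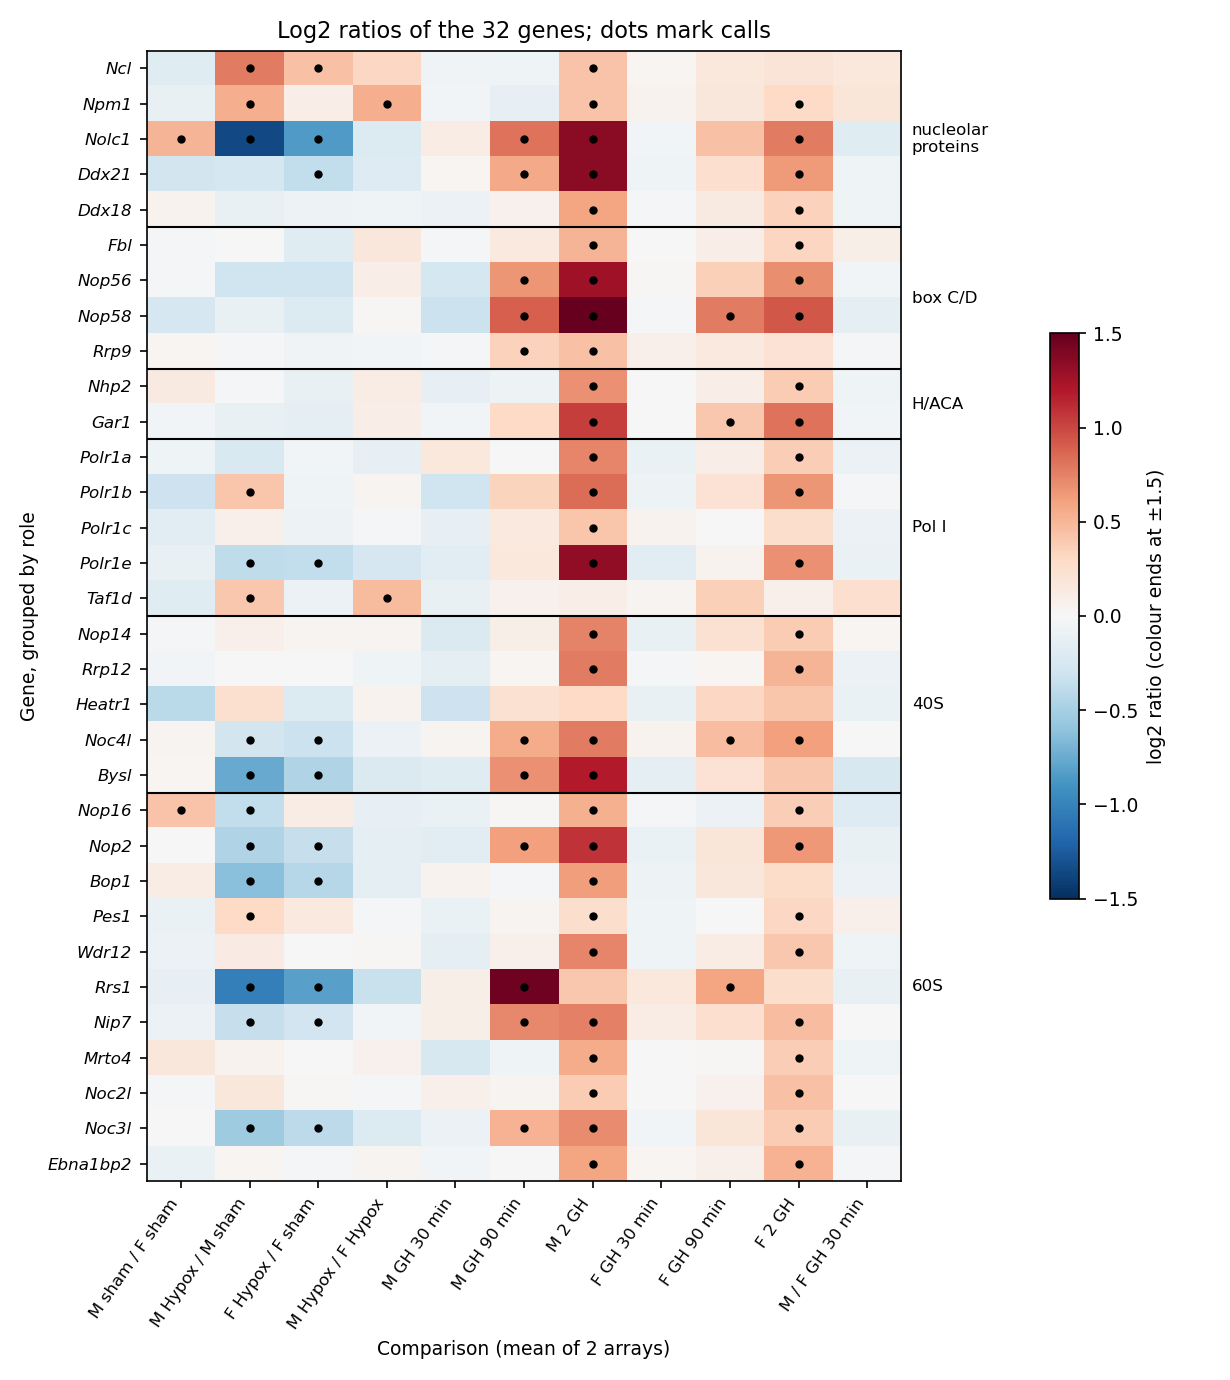
Mean log2 ratios of the 32 genes (rows, grouped by role) in the 11 comparisons (columns), in colour from blue (lower in the first named group) to red (higher), with a dot on each call. The columns for 2 injections are red throughout, with 29 dots in males and 24 in females, and the 30 min columns hold no dot.

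Among the nucleolar proteins, Nolc1 was 1.58 and 1.12 higher on the 2 male arrays after 2 injections, a 2.55-fold rise (adjusted p = 3.6e-05), and 0.88 and 0.68 higher in females (adjusted p = 0.0053). Ddx21 was 1.68 and 1.03 higher in males (mean 1.35, adjusted p = 2.4e-05) and 0.79 and 0.48 higher in females (mean 0.64, adjusted p = 0.0097). For both genes the lower male array lay above the higher female one. The helicase Ddx18 rose by 0.59 in males and 0.35 in females. The abundant nucleolar proteins moved less. Npm1, nucleophosmin, was 0.59 and 0.27 higher in males (mean 0.43, adjusted p = 0.0018) and 0.27 and 0.32 higher in females (mean 0.30, adjusted p = 0.034). Ncl, nucleolin, was 0.63 and 0.22 higher in males (mean 0.43, adjusted p = 0.010) and 0.17 and 0.21 higher in females without a call (adjusted p = 0.32).

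Among the snoRNP proteins, Nop58 was 1.75 and 1.29 higher in males, a 2.87-fold rise (adjusted p = 2.4e-05), the highest mean of the 32 genes. In females it was 1.08 and 0.79 higher, a 1.91-fold rise (adjusted p = 0.0027). Its male arrays both exceeded its female arrays. Nop56 was 1.59 and 0.95 higher in males (mean 1.27, adjusted p = 2.8e-05) and 0.80 and 0.60 higher in females (mean 0.70, adjusted p = 0.0056). Fbl, fibrillarin, the methyltransferase of the same particle, rose less, by 0.51 in males and 0.32 in females. Rrp9 rose by 0.44 in males, and its mean in females was 0.22 (adjusted p = 0.058).
Gar1 was 1.22 and 0.86 higher in males, a 2.06-fold rise (adjusted p = 9.5e-06), and 0.93 and 0.71 higher in females, a 1.76-fold rise (adjusted p = 1.6e-04). Here the arrays of the sexes overlapped. Nhp2, another box H/ACA protein, rose by 0.69 in males and 0.38 in females.

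Of RNA polymerase I, Polr1e, a subunit peculiar to this polymerase, was 1.40 and 1.27 higher in males, a 2.52-fold rise (adjusted p = 2.3e-05), and 0.64 and 0.73 higher in females, a 1.61-fold rise (adjusted p = 0.006). At 90 min it had been 0.14 and 0.18 in males and -0.06 and 0.17 in females, with no call. The large catalytic subunit Polr1a rose by 0.73 in males and 0.36 in females. Polr1b, the other large subunit, was 0.88 and 0.79 higher in males (mean 0.84, adjusted p = 0.0012) and 0.36 and 0.95 higher in females (mean 0.66, adjusted p = 0.016). Polr1c, which RNA polymerase III also uses, rose by 0.42 in males, and its female mean was 0.26 (adjusted p = 0.089). Taf1d, a subunit of the promoter selectivity factor of RNA polymerase I, was 0.29 and -0.09 in males and 0.08 and 0.09 in females, with no call in either sex. Its arrays lay near 0 where those of the 4 polymerase subunits lay above it.

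The 40S factors were led by Bysl, bystin, which was 1.39 and 0.98 higher in males, a 2.27-fold rise (adjusted p = 1.6e-04). In females it was 0.37 and 0.43 higher without a call (adjusted p = 0.12), and both male arrays exceeded both female arrays. Noc4l was 0.75 and 0.81 higher in males (mean 0.78) and 0.54 and 0.69 higher in females (mean 0.61). Rrp12, which acts in subunit export in yeast, rose by 0.78 and 0.51, and Nop14, the partner of Noc4l in yeast, by 0.75 and 0.38. Heatr1, a processome protein, was 0.46 and 0.14 in males (adjusted p = 0.16) and 0.42 and 0.41 in females (adjusted p = 0.080).

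Of the 60S factors, Nop2 was 1.24 and 0.92 higher in males, a 2.12-fold rise (adjusted p = 5.7e-05), and 0.62 and 0.69 higher in females (mean 0.65, adjusted p = 0.0061). Its lower male array lay above both female arrays. The Pes1-Bop1-Wdr12 complex, needed to mature the large subunit RNAs, moved unevenly. Wdr12 rose by 0.73 in males and 0.40 in females, Pes1 by 0.26 and 0.32, and Bop1 by 0.63 in males, with a female mean of 0.28 (adjusted p = 0.10). The other 60S factors that rose in both sexes were Nip7 (0.75 in males, 0.46 in females), Noc3l (0.71, 0.38), Ebna1bp2 (0.59, 0.52), Mrto4 (0.56, 0.36), Nop16 (0.54, 0.36) and Noc2l (0.38, 0.43). Rrs1 was 0.72 and 0.09 in males (mean 0.41, adjusted p = 0.067) and 0.49 and 0.02 in females (mean 0.26, adjusted p = 0.33), with array 2 near 0 in both.

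The male count after 2 injections was 21 without array 1 and 29 without array 2. The female count was 4 without array 1 and 2 without array 2, and 0 when arrays were only centred on their medians (10 in males). Skeletal muscle markers differed on the same arrays, and their part in the result was not tested. On male array 1, where their median was -0.03, the median of the 32 genes was 0.73, and on array 2, where theirs was 2.57, it was 0.63. Both female arrays had low muscle markers (the mean ratios of the 12 lay between -4.83 and -0.32) and medians of the 32 genes of 0.35 and 0.42. At 90 min in females, where muscle markers were near 0 on both arrays, the medians of the 32 genes were 0.10 and 0.26, and in males 0.13 and 0.16.

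**Figure D3:**
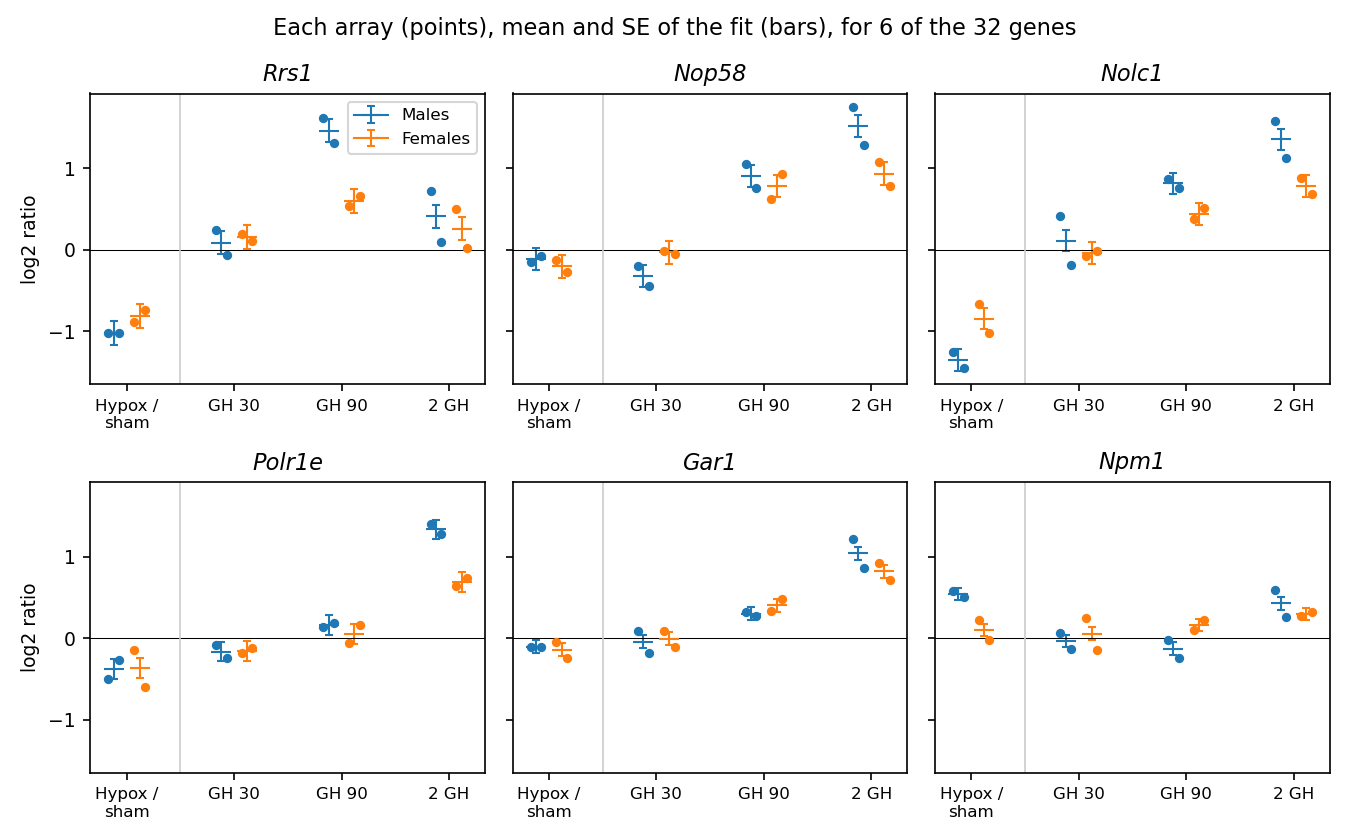
Log2 ratio (y axis) of 6 genes in Hypox over sham and in the 3 GH comparisons (x axis), males in blue and females in orange, with each array as a point and the mean and SE of the fit as bars. Rrs1 has its highest GH ratios at 90 min (1.46 in males, 0.60 in females), and Nop58, Nolc1, Polr1e, Gar1 and Npm1 have theirs after 2 injections.

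The times were compared by the differences between their ratios. The difference of 90 over 30 min was called for 5 genes in males, Rrs1, Nop58, Nop56, Nop2 and Nip7 (1.39% of all genes were higher and 1.07% lower), and for none in females (0.141% and 0.0115%). Limma gave 9 higher and 0 lower in females at an unadjusted p under 0.05, against 5.78% and 2.57% of all genes. After 2 injections 29 genes were higher than at 30 min in males (7.61%) and 9 in females (1.01%), and none was lower (7.00% and 0.401%). The female 9 were Nop58, Polr1e, Gar1, Nop2, Rrp12, Ebna1bp2, Nop14, Pes1 and Ddx18. Compared with 90 min, 2 injections gave 15 higher genes in males (4.31%) and 2 in females (0.824%). Rrs1 was the only lower gene in males (3.29% of all genes), and none was lower in females (1.23%). The differences between 2 injections and 90 min were added after the single ratios had been seen.

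Polr1e had the highest of these male differences, 1.17, and the others were between 0.36 (Fbl) and 0.79 (Ddx21). Rrp12 (0.47) and Ebna1bp2 (0.45) were the female 2. The fit gave a median difference of 2 injections over 90 min of 0.52 over the 32 genes in males and 0.26 in females.
On the same slide, the difference of 90 over 30 min in males was above 0 in 28 genes on slide 1 (median 0.24) and in 27 on slide 2 (median 0.30), and all 5 called genes were above 0 on both. In females the difference of 2 injections over 30 min was above 0 in 31 of 32 genes on each of its slides, with medians of 0.39 and 0.50. Both male arrays of 2 injections lay on slide 3, scanned on another day than slides 1 and 2, together with the arrays of males over females at 30 min. No slide held the male ratio over Hypox after 2 injections and at another time. For the male differences that use the ratio after 2 injections, slide, time and number of injections cannot be told apart. The 5 male calls of 90 over 30 min fell to 0 without array 1 of the 90 min or array 2 of the 30 min comparison, and to 3 without array 2 of the 90 min one. The 16 male calls of 2 injections over 90 min were 10 without array 1 and 8 without array 2 of the 90 min comparison, and 9 without array 1 of 2 injections. The female 9 fell to 0 or 1 without any 1 array, and the female 2 to 0.

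Myc, which is no gene of the list, was read beside it to set the times side by side. In males it was 0.98 and 0.63 higher at 30 min (adjusted p = 0.48), 2.42 and 2.82 higher at 90 min (mean 2.62 ± 0.53, adjusted p = 0.014) and 1.25 and 1.86 higher after 2 injections (mean 1.56, adjusted p = 0.060). In females it was 0.46 and 0.80 higher at 30 min (adjusted p = 0.89), 3.07 and 2.87 higher at 90 min (mean 2.97, adjusted p = 0.011) and 1.20 and 0.92 higher after 2 injections (mean 1.06, adjusted p = 0.27). In both sexes both arrays at 90 min lay above every array of the other times by this probe and by another Myc probe. By the remaining Myc probe they were 1.48 and 1.68 against 0.80 and 1.54 after 2 injections in males, and 1.86 and 0.80 against 0.89 and 0.90 in females, so the arrays of the times overlapped. Rrs1 also had its highest arrays at 90 min in males, with 0.24 and -0.06 at 30 min and 0.72 and 0.09 after 2 injections below 1.61 and 1.31. Its arrays at 30 min and after 2 injections overlapped, where those of Myc by its brightest probe did not. In females its 0.19 and 0.11 at 30 min and its 0.49 and 0.02 after 2 injections lay below 0.53 and 0.66 at 90 min. Its difference of 2 injections over 90 min was -1.05 ± 0.20 in males (adjusted p = 0.0092), a call that was lost without array 1 of the 90 min or array 2 of the 2-injection comparison. In females it was -0.34 (adjusted p = 0.44). For Myc that difference was -1.07 ± 0.75 in males (adjusted p = 0.49) and -1.90 in females (adjusted p = 0.21), which did not pass the test. The remaining 31 genes had a higher mean after 2 injections than at 90 min in males, as did 30 of the 32 in females. Without the sham arrays in the fit, Myc after 2 injections passed the test in both sexes (adjusted p = 0.0034 and 0.047). The arrays of Myc in the sham comparisons were far apart, with 1.60 and -0.74 in sham males over sham females.

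Removal of the pituitary was followed by calls in both directions within the list, and rises were no more frequent than among all genes. In Hypox over sham males 5 genes rose and 10 fell, where 18.8% of all genes rose and 18.6% fell. In females 1 rose and 10 fell (14.6% and 16.5% of all genes). The medians were -0.07 and -0.10, with ranges from -1.36 to 0.78 and from -0.85 to 0.44. Of the 10 that fell in each sex, 9 were the same, which was 90% of each list: Nolc1, Polr1e, Noc4l, Bysl, Nop2, Bop1, Rrs1, Nip7 and Noc3l. This overlap was not worked out over all genes. Nop16 fell in males and Ddx21 in females.

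Nolc1 was -1.26 and -1.45 in Hypox over sham males, a ratio of 0.391 (adjusted p = 7.4e-06), and -0.67 and -1.02 in females (adjusted p = 4.9e-04). Rrs1 was -1.02 on both male arrays, a ratio of 0.493 (adjusted p = 1.3e-04), and -0.89 and -0.74 in females (adjusted p = 0.001). All arrays of these genes were low in Hypox. Of the 60S genes 6 of 11 fell in males and 5 in females. Among them Bop1 was -0.63 in males and -0.43 in females, and Noc3l was -0.53 and -0.39. Of the 40S genes Bysl was -0.67 and -0.83 in males (mean -0.75) and -0.32 and -0.58 in females (mean -0.45). Polr1e fell by 0.38 and 0.37.
Fewer genes rose in Hypox, at a share below that of all genes, and nucleolin had the highest mean of the list. Ncl was 0.65 and 0.91 higher in males (mean 0.78, adjusted p = 7.5e-05) and 0.55 and 0.33 higher in females (mean 0.44, adjusted p = 0.006). Npm1 was 0.58 and 0.51 higher in males (mean 0.54, adjusted p = 1.4e-04) but 0.22 and -0.02 in females, where it was not called. Polr1b and Taf1d rose by 0.41 each in males and Pes1 by 0.30. No gene of the 4 box C/D and the 2 box H/ACA proteins was called in Hypox over sham in either sex.

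These counts were 8 and 9 in males without array 1 or array 2, and 4 and 5 in females. When arrays were only centred on their medians they were 2 in males and 0 in females, from 15 and 11. Muscle markers were low in Hypox over sham males, as given above, and near 0 in females. Lymphocyte markers rose in both (5 of 6 in males, 4 of 6 in females, medians 0.64 and 0.32). The part of muscle and lymphocyte markers in the result was not tested.

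The sexes were compared directly on 6 arrays and by the differences of their GH ratios. In sham males over sham females Nolc1 (0.46 and 0.55, adjusted p = 0.032) and Nop16 (0.43 and 0.42, adjusted p = 0.0028) were higher, and none was lower (5.03% of all genes were higher and 3.74% lower). On these arrays 3 of 12 muscle markers were higher (all 12 above 0 on both arrays, median 2.53) and 2 of 5 macrophage markers lower (median -0.61), and their part in the result was not tested. In Hypox males over Hypox females Npm1 (0.49 and 0.59, adjusted p = 0.0068) and Taf1d (0.40 and 0.54, adjusted p = 0.041) were higher and none was lower (0.866% and 0.763%). All of these 4 calls were lost when either array of their comparison was left out. At 30 min after GH no gene was called between the sexes (0.275% and 0.229%), and at an unadjusted p under 0.05 limma gave 2 higher in males and 1 lower (6.84% and 5.76%). The effect of Hypox differed between the sexes for Npm1, by 0.44 more in males (adjusted p = 0.030), and for Nop16, by -0.48 (adjusted p = 0.018), against 3.22% and 3.52% of all genes. Without any 1 of the 4 arrays these 2 calls became 0 or 1.

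After 2 injections the 24 genes that rose in females all rose in males, where they were 82.8% of the 29. Bop1, Bysl, Ncl, Polr1c and Rrp9 rose in males without a call in females. At 90 min 3 genes rose in both sexes, 27.3% of the male and 75% of the female calls. The overlap between the sexes was not worked out over all genes, so these shares have no background to be read against. The mean ratio after 2 injections was higher in males for 29 of 32 genes (49.8% of all genes). Both male arrays exceeded both female arrays for 22 (23.1% of all genes) and lay below them for none (22.1%). No sex difference of the GH ratio was called, at 90 min (0.00763% of all genes higher in males and 0 lower) or after 2 injections (1.11% higher, 0.866% lower). Limma gave 17 of the 32 higher in males after 2 injections at an unadjusted p under 0.05, and none lower, against 9.88% and 7.37% of all genes. At 90 min it gave 5 higher and 1 lower, against 4.05% and 6.03%. The count after 2 injections was 4 without background subtraction, 5 in the loop model, 2 with the replicate number as a block and 1 with slide as a random block, all higher in males. The nearest to a call were Ddx21 (0.72, adjusted p = 0.055), Polr1e (0.65, 0.066), Bysl (0.79, 0.068) and Nop14 (0.37, 0.069). Muscle markers were 4.07 higher in the male than in the female ratio by the same measure (median of 12), slide and sex cannot be told apart there, and the part of neither was tested.

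**Figure D4:**
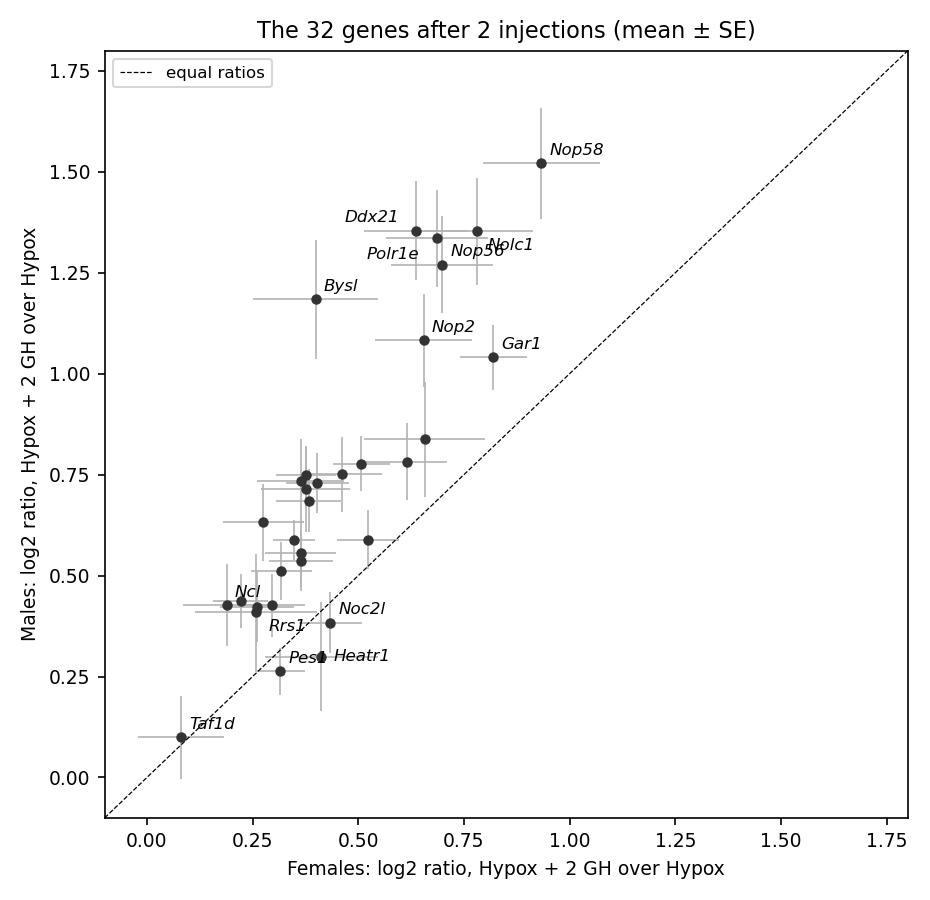
Mean log2 ratios ± SE of the 32 genes in Hypox + 2 GH over Hypox, females on the x axis and males on the y axis, with a dashed line at equal ratios. Of the 32 points 29 lie above the line, and Nop58 has the highest ratio in both sexes (1.52 in males, 0.93 in females).

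For 12 of the 32 genes other probes were on the array, and the brightest was used. Of the 32 called ratios with such probes, 1 had another probe of opposite sign, Ebna1bp2 with 0.59 against -0.01 after 2 injections in males. Of the 22 called differences, 2 did, both for 2 injections over 90 min in males. Nop16 was 0.51 against -0.02 and Ebna1bp2 0.59 against -0.15. In 10 of the 32 called ratios another probe was under 2/3 of the brightest, for Bysl, Ddx21, Ncl and Ebna1bp2. Bysl at 90 min in males was 0.68 by its brightest probe and 0.05 by both others, and Ddx21 was 0.57 against 0.05 and 0.22. Ncl in Hypox over sham was 0.78 and 0.80 by 2 probes in males and 0.26 by another, and 0.44 and 0.46 against 0.02 in females. Bysl there was -0.75 against -0.39 and -0.42 in males, and -0.45 against -0.16 and -0.11 in females. Heatr1, uncalled at 0.30 after 2 injections in males, had another probe at 0.94. With all probes of a gene averaged, 9 of the 32 were called at 90 min in males in place of 11.

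Wider lists were read with the same fit. Of 96 further ribosome biogenesis genes tested, 16 rose in males at 90 min (3.40% of all genes) and 64 rose after 2 injections (10.6%), where Rcl1, a factor of pre-rRNA cleavage, alone fell, by 0.36. In females 8 rose at 90 min (2.34%) and 40 after 2 injections (4.40%). Their medians after 2 injections were 0.41 in males and 0.25 in females, against 0.70 and 0.39 for the 32 genes. Gtpbp4, a GTPase of 60S assembly, was 0.73 and 0.92 higher at 90 min in males (adjusted p = 0.014) and 0.59 and 1.03 higher in females (adjusted p = 0.022). After 2 injections it was 1.44 and 0.99 higher in males, and 0.65 and 0.44 higher in females without a call (adjusted p = 0.066). In Hypox over sham it was -0.83 in males and -1.03 in females, and Nvl, an ATPase of 60S assembly, was -0.91 and -1.33. Ftsj3 (1.17), Utp18 (1.10) and Exosc1 (1.01) were the next highest after 2 injections in males, and Tsr1 (0.75), Nifk (0.66) and Mybbp1a (0.62) led in females.

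None of 6 further RNA polymerase I genes was called after GH at any time, where at most 10.6% of all genes rose and 8.70% fell. At an unadjusted p under 0.05 limma gave at most 1 higher and 2 lower at any 1 time. The highest such shares of all genes were 15.1% and 14.8%, after 2 injections in males. In Hypox over sham the terminator protein Ttf1 fell by 0.79 in males and 0.92 in females. Of 17 RNA polymerase III genes 3 rose in males at 90 min (3.40% of all genes), Polr3f (0.49), Polr3d (0.43) and Polr3e (0.22). After 2 injections 3 rose and 2 fell in males, where 10.6% of all genes rose and 8.70% fell. The 2 that fell were Polr3gl (-0.66) and Maf1 (-0.53), a repressor of that polymerase.

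Of 79 cytosolic ribosomal protein genes none was called after GH at 90 min or after 2 injections in either sex. At 30 min in males 2 were lower (0.721% of all genes). At an unadjusted p under 0.05 limma gave 2 higher and 0 lower in each sex after 2 injections (15.1% of all genes higher in males, 10.8% in females). At 90 min it gave 0 in males and 6 higher and 1 lower in females (10.1% of all genes higher in each sex). Their medians after 2 injections were -0.01 in males and 0.05 in females. In Hypox over sham 67 of the 79 rose in males (median 0.46) and 47 in females (median 0.32), with 1 lower. Of all genes 18.8% rose there in males and 14.6% in females. Rps27 was 0.97 and 0.77 higher. The difference between this list and the 32 genes was not tested.

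Of 16 genes known as Myc targets outside the nucleolus, 9 rose after 2 injections in each sex (10.6% of all genes in males, 4.40% in females). Cad, which starts pyrimidine synthesis, was 1.60 and 1.38 higher in males (adjusted p = 6.1e-05) and 0.68 and 0.76 higher in females (adjusted p = 0.018). Srm, spermidine synthase, was 1.51 and 1.45 higher in males and 0.79 and 1.16 higher in females. At 90 min 2 rose in males, Odc1 (0.45) and Hspe1 (0.30), and none in females (3.40% and 2.34% of all genes). In females limma gave 4 higher and 2 lower at an unadjusted p under 0.05, against 10.1% and 4.71% of all genes. Of the Myc network genes Max (0.41) and Mlx (0.43) rose and Mycl (-1.07) and Mxi1 (-0.62) fell after 2 injections in males. There 10.6% of all genes rose and 8.70% fell. The number of network genes tested is not given here, so these calls cannot be read against those shares. Their results in females and at other times are not given either.

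**Figure D5:**
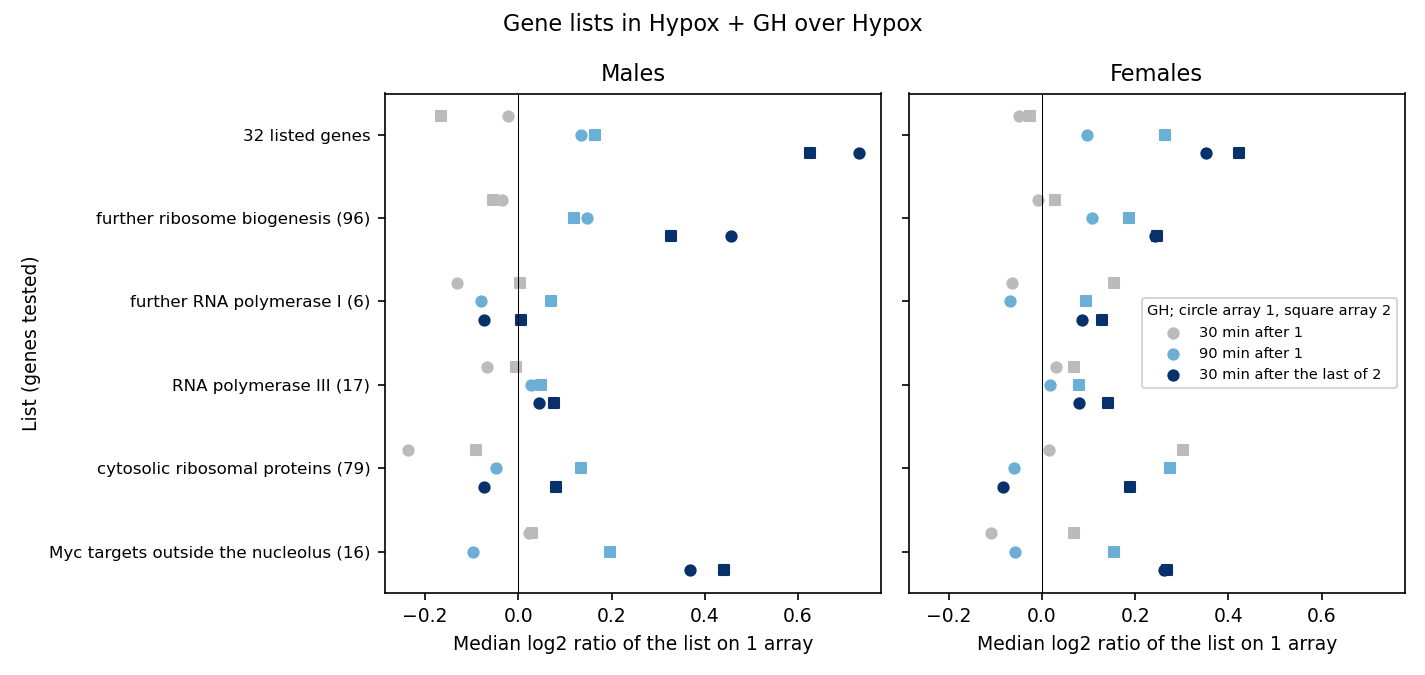
Median log2 ratio of each gene list on each array (x axis) in Hypox + GH over Hypox at the 3 times, males left and females right, with array 1 as a circle and array 2 as a square. After 2 injections the medians of the 32 genes are 0.73 and 0.63 in males and 0.35 and 0.42 in females, and those of the cytosolic ribosomal proteins lie on either side of 0.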

How the data were processed

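Liver RNA pools were compared on 22 two-colour arrays, per the labels. The deposited scanner files hold mean and background median signal intensity of each spot and the scanner's log10 ratio, per the file headers. The deposited value table holds log2 ratios, and its 22 columns equalled scanner log ratios within 0.005, 6 under the same label and 16 under that of the other replicate, so the scanner files' own labels were used. Column medians were -0.02 to 0. The labelled dyes set the direction of each ratio.

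Signals were corrected with normexp (offset 50) and loess within arrays in limma 3.58.1 (R 4.3.3), with control spots at weight 0 and outlier spots left out. Spots of a probe were averaged. Of 41174 probes, 22072 were named by RefSeq accession, 10 had a current symbol in the file and 19092 kept the file's name. The brightest probe of each of 33767 gene names was used, and 26198 genes above background were tested. One model held 11 comparisons and a dye term (10 residual degrees of freedom), with Benjamini-Hochberg adjustment. SEs of the 32 genes were 0.05 to 0.15. Scanner ratios, other background, scaling, probe, filter and block choices, and leaving out each array were tried as alternatives.

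All listed genes are named, with Myc, the GH target Socs2 and up to 4 called genes of each other list, by comparison and direction. Cish, Igf1 and Bcl6 were also chosen as a check of the GH injections, and their values are not given here. The members and lists were chosen with earlier results of these data known. Deviations of same-numbered arrays were correlated over the 24 pairs of comparisons that share a group, with the sign turned so that a shared pool gives a value above 0. They ranged from -0.359 to 0.871, over 0.1 in 11 pairs, among them all 4 that share a sham or 30 min GH group, and under -0.1 in 10, so the numbers were not used as a block in the model. Arrays of comparisons that share a group may share pools but were fitted as independent.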

Additional observations from a re-analysis of the deposited data

Results flagged for a closer look

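Differences between times or sexes under the same contrast brought the following genes out, each by a limma test of the difference itself, on the log2 scale. No explanation of them was tested.

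In males 90 min exceeded 30 min by 1.37 for Rrs1, 1.23 for Nop58, 0.93 for Nop56, 0.78 for Nop2 and 0.63 for Nip7.

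In males 2 injections exceeded 30 min for 29 genes. The difference was above 1 for Nop58 (1.84), Nop56 (1.54), Polr1e (1.50), Bysl (1.37), Ddx21 (1.32), Nop2 (1.25), Nolc1 (1.24), Polr1b (1.13) and Gar1 (1.08). It was 0.96 for Nop14, 0.91 for Rrp12, 0.88 for Wdr12, 0.81 for Nhp2, 0.80 for Noc3l, 0.79 for Mrto4, 0.74 for Noc4l, 0.67 for Ddx18, 0.66 for Nip7, 0.63 for Nop16 and 0.63 for Ebna1bp2. The lowest were Heatr1 (0.61), Bop1 (0.58), Polr1a (0.57), Fbl (0.54), Polr1c (0.54), Ncl (0.48), Npm1 (0.46), Rrp9 (0.46) and Pes1 (0.37).

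In females 2 injections exceeded 30 min by 0.97 for Nop58, 0.84 for Polr1e, 0.83 for Gar1, 0.76 for Nop2, 0.53 for Rrp12, 0.50 for Ebna1bp2, 0.49 for Nop14, 0.38 for Pes1 and 0.38 for Ddx18.

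Set against 90 min in males, 2 injections were higher for Polr1e (1.17), Ddx21 (0.79), Nhp2 (0.76), Gar1 (0.74), Rrp12 (0.74), Polr1a (0.73), Bop1 (0.66), Nop14 (0.66), Wdr12 (0.66), Mrto4 (0.62), Ebna1bp2 (0.59), Npm1 (0.55), Ddx18 (0.53), Nop16 (0.51) and Fbl (0.36). Rrs1 alone was lower, by -1.05. In females Rrp12 (0.47) and Ebna1bp2 (0.45) were higher.

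Between the sexes, the ratio of Hypox over sham was 0.44 higher in males for Npm1 and differed by -0.48 for Nop16.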

How the results depend on the processing

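The counts are of the 32 genes called, and the cause of a change was not tested unless stated. Centring arrays on their medians in place of loess gave 2 of 15 calls in Hypox over sham males and 0 of 11 in females, 1 of 11 and 2 of 4 at 90 min in males and females, and 10 of 29 and 0 of 24 after 2 injections. It gave 1 of 29 calls for 2 injections over 30 min in males and 0 for every other time or sex difference, sham males over sham females and Hypox males over Hypox females. Medians of the 32 genes there were 0.17 and 0.76 at 90 min and 0.72 and 0.51 after 2 injections, with all genes shifted by 0.24 at 90 min in females, and in Hypox over sham males the median turned from -0.07 to 0.05. There all genes gave 95 rises and 25 falls in males and 849 and 209 in females at 90 min. Ebna1bp2 turned to -0.0711 for 2 injections over 90 min in females, the only called gene whose direction turned.

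Without background subtraction 1 gene was lower at 30 min in males, 90 over 30 min in males gave 8, 2 injections over 90 min in females 10, and the sex difference after 2 injections 4. The scanner's log ratios gave 7 for Hypox over sham and 2 at 90 min in females, 8 for 90 over 30 min in males and 1 for 2 injections over 90 min in females. Without a dye term, Hypox males over females, 2 injections over 90 min in females and the sex difference of the Hypox effect gave 1 each. Without the sham arrays, 90 min in females gave 1, Hypox males over females 1, 90 over 30 min in males 3, 2 injections over 30 min in females 3 and the sex difference after 2 injections 1. The loop model of groups gave 10 and 1 for 90 over 30 min in males and females, 19 for 2 injections over 30 min and 6 over 90 min in females, 5 for the sex difference after 2 injections and 7 for that of the Hypox effect. Without the filter, and with slide as a random block, 2 injections over 90 min in females gave 1. Averaged probes, and the slide block, gave 1 for the sex difference after 2 injections.

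With the replicate number as a block, which did not pair the arrays throughout, 90 over 30 min in males gave 8, 2 injections over 30 min in females 14 and the sex difference after 2 injections 2.

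Leaving out 1 array gave 8 to 9 calls for Hypox over sham in males and 4 to 5 in females, 1 to 4 at 90 min in males and 0 to 5 in females, and 21 to 29 after 2 injections in males and 2 to 4 in females. For the differences it gave 0 to 6 for 90 over 30 min, 21 to 26 for 2 injections over 30 min and 8 to 17 over 90 min in males. In females these were 0, 0 to 1 and 0. Both direct sex comparisons of sham and of Hypox gave 0, and the sex difference of the Hypox effect 0 to 1. The number of arrays limits the precision.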
